A study of Mus musculus with 12 samples.

Results

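The 10 genes described here are the enzymes of the urea cycle and of amino acid breakdown that the liver keeps near the portal vein, namely *Cps1*, *Otc*, *Ass1*, *Asl*, *Arg1*, *Nags*, *Gls2*, *Hal*, *Sds* and *Uroc1*. They were taken by symbol as a named set, and no measured value entered the choice. All 10 were found among the 31663 genes of the count table for the CDE diet and among the 25285 genes of the table for the normal diet. All 10 also passed the filter for low counts, which left 17036 and 10909 genes to test.

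Polyadenylated RNA from whole livers of C57BL/6 mice was sequenced in 4 groups of 3 libraries. CflarLKO mice carry a floxed *Cflar* gene, which encodes the caspase 8 inhibitor cFLIP, together with a Cre recombinase driven by the albumin promoter, so that deletion is directed to hepatocytes and is known to be incomplete. They were compared with CflarFF mice, which carry the floxed gene. Both of these groups were females that were 8 weeks old when they were placed on a choline-deficient diet with 0.15% DL-ethionine in the drinking water (the CDE diet, which injures the liver), and RNA was taken after 28 days. *Fgf18* Tg mice carry a transgene in the Rosa26 locus that the albumin promoter-driven Cre switches on, so that hepatocytes express the secreted growth factor *Fgf18*. They were compared with non-Tg mice, and both of these groups were 8 weeks old and fed a normal diet. The labels give no age for them, so that it was taken from the legend to the sequencing data, and they give neither the sex of the normal diet mice nor whether the control mice carried the Cre.

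The urea cycle turns ammonia, which is freed when amino acids are broken down, into urea for excretion. NAGS makes N-acetylglutamate, the cofactor without which CPS1 is inactive. CPS1 then makes carbamoyl phosphate from ammonia, OTC joins it to ornithine, and both reactions run in mitochondria. In the cytosol, ASS1 and ASL add nitrogen from aspartate and release arginine, and ARG1 splits arginine into urea and ornithine. Hepatocytes around the portal vein (periportal) carry most of this work, whereas those around the central vein (pericentral) capture the ammonia that remains as glutamine. The other members feed the cycle. GLS2, the liver glutaminase, frees ammonia from glutamine, HAL and UROC1 open the breakdown of histidine, and SDS converts serine to pyruvate and ammonia.

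Depth was 6487178 to 10414883 counts a library on the CDE diet and 1136680 to 3089872 on the normal diet, so low values are less precise in the normal diet table. Levels are given as normalized counts, which are counts divided by the effective size of the library (its total times a factor of edgeR's trimmed mean of M values, TMM) and brought back to the mean size within an experiment. They compare libraries for 1 gene within 1 experiment, and not genes with each other. With TMM factors *Cflar* was lower in CflarLKO than in CflarFF livers (log2 fold change -0.47, SE 0.13, adjusted p = 0.0235 in edgeR's quasi-likelihood test), although a count per gene does not separate transcripts that lack the deleted exon. Its counts were 658, 517 and 397 in CflarLKO livers, against 533, 515 and 602 in CflarFF livers. As shares of all counts in a library these overlapped, so the lower value depended on the scaling. *Fgf18* had 9564, 5725 and 2803 counts in *Fgf18* Tg livers, against 191, 63 and 90 in non-Tg livers. CflarFF replicate 2 stood apart within its group, with 2.75% of its counts from albumin (*Alb*), against 7.82% and 5.04% in the other CflarFF libraries. The CflarLKO libraries were lower still, at 1.78%, 2.39% and 2.61%. The CDE diet libraries had 2694 to 4458 counts of *Xist*, the RNA of the inactive X chromosome, and the normal diet libraries had 0 to 4. *Ddx3y*, a gene of the Y chromosome, had 0 to 3 counts in the CDE diet libraries and 59 to 187 in the normal diet libraries. By both RNAs the normal diet livers were male, so sex differed between the experiments. The study's methods state that mice on the CDE diet were kept 1 to a cage. Nothing in the labels gives the cages of the normal diet mice or the litters of any group, so the p-values measure the spread between these libraries.

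The urea cycle and periportal amino acid genes were lower in CflarLKO livers than in CflarFF livers on the CDE diet, and most of them were also lower in *Fgf18* Tg livers than in non-Tg livers on the normal diet. In the CflarLKO livers, 8 of the 10 genes were lower at an adjusted p under 0.05 and none was higher, where 13.1% of all tested genes were lower and 15.6% higher. In the *Fgf18* Tg livers, 6 of the 10 were lower and none was higher, where 11.7% of all tested genes were lower and 10.7% higher. The median log2 fold change of the 10 genes was -1.15 in CflarLKO livers, beside -0.00 over all tested genes, and -0.59 in *Fgf18* Tg livers, beside 0.02 over all tested genes. Groups without overlap, in which every CflarLKO library lay below every CflarFF library, were found for 8 of the 10 genes, beside 21.0% of all tested genes, and no gene had every CflarLKO library above every CflarFF library, beside 23.8%. For *Fgf18* Tg and non-Tg livers the counts were 7 of 10 below, beside 19.3%, and 0 above, beside 19.4%. In bulk RNA, fewer hepatocytes and less RNA per hepatocyte cannot be told apart, and when the libraries were scaled to 30 hepatocyte genes in place of all genes, 2 of the 10 genes were lower in CflarLKO livers, beside 1.27% of all tested genes, and 5 of the 10 in *Fgf18* Tg livers, beside 5.60%. On that scale none of the 10 was higher, beside 68.5% of all tested genes in CflarLKO livers and 18.3% in *Fgf18* Tg livers.

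*Otc*, *Asl*, *Nags*, *Hal* and *Uroc1* were lower in both experiments. RefSeq promoter windows (GRCm38.p6, from 250 bases before to 50 bases after the start of the gene) were at hand for 5 of the 10 members, of which 4 are among the 5 genes that were lower in both experiments, and these 4 are shown to let the start regions of genes that moved together be compared. The *Otc* window is chrX:10252055-10252354, that of *Nags* is chr11:102145263-102145562, that of *Hal* is chr10:93488518-93488817 and that of *Uroc1* is chr6:90333039-90333338, each on the plus strand and written 5′ to 3′. Capitals mark matches to the motifs searched on both strands.
Otc: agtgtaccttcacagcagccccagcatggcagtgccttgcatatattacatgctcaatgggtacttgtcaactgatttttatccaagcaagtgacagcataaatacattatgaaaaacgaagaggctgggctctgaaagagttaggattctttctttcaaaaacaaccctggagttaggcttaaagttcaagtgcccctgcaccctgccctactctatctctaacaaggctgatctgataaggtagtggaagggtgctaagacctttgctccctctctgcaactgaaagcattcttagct
Nags: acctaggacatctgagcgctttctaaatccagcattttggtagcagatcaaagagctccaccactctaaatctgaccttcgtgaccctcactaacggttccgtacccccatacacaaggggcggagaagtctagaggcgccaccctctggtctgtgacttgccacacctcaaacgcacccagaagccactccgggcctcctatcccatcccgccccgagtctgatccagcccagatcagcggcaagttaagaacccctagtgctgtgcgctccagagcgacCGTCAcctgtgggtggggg
Hal: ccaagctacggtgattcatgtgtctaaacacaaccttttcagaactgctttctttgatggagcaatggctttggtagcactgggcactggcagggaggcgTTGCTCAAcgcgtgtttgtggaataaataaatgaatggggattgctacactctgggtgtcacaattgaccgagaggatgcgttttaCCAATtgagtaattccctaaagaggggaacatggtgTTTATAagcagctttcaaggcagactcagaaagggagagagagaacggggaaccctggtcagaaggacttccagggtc
Uroc1: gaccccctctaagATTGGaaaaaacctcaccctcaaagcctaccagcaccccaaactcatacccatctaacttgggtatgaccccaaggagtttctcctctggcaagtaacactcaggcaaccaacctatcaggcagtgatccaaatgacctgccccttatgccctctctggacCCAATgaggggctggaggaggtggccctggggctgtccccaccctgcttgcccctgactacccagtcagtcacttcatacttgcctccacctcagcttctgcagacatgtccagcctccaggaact
The letters searched were TGACG (the core of the element bound by CREB), TTGCNNAA (C/EBP-like), AAAGTCC (HNF4-like), GTTAAT (HNF1-like), TGTTCT (glucocorticoid receptor-like), TATAAA (bound by TBP) and CCAAT (bound by NF-Y). *Nags* held TGACG at position 31 after the start on the minus strand, as did 20.8% of all 32851 windows on either strand. In the *Hal* window, TTGCNNAA lay at position -150 (10.8% of all windows), CCAAT at -64 (37.4%) and TATAAA at -28 on the minus strand (13.6%). *Uroc1* held CCAAT at -237 on the minus strand and at -76 on the plus strand. The *Otc* window held none of the 7 motifs, and the HNF4-like, HNF1-like and glucocorticoid receptor-like motifs, held by 4.21%, 7.1% and 19% of all windows, were in none of the 4. A match of letters is a description and not a binding site, and no motif was common to the 4 windows.

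Among the mitochondrial enzymes, *Nags* was the member with the least spread in the CDE diet experiment. It had 375, 362 and 419 normalized counts in CflarLKO livers, against 900, 873 and 808 in CflarFF livers. The groups were far apart, and the CflarLKO libraries averaged 385 ± 29.7 against 860 ± 47.6 in CflarFF libraries (SD, n = 3 each; log2 fold change -1.16, SE 0.13, edgeR adjusted p = 0.000245). *Cps1*, which encodes the enzyme that NAGS serves, had 7853, 11094 and 12561 normalized counts in CflarLKO livers, against 14058, 16761 and 22929 in CflarFF livers. All CflarLKO libraries lay below all CflarFF libraries, the highest CflarLKO library coming close to the lowest CflarFF library (log2 fold change -0.77, SE 0.24, edgeR adjusted p = 0.0328), but scaled to hepatocyte genes the value was 0.09 (adjusted p = 0.755). *Otc* had 465, 703 and 811 normalized counts in CflarLKO livers, against 2331, 897 and 2329 in CflarFF livers. The low CflarFF value was that of replicate 2, the CflarFF library poor in albumin, and it still lay above every CflarLKO library (log2 fold change -1.49, SE 0.39, edgeR adjusted p = 0.0286).

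Of the cytosolic enzymes, *Asl* and *Arg1* were lower and *Ass1* did not pass the test. *Asl*, which releases arginine, had 1214, 1632 and 1894 normalized counts in CflarLKO livers, against 2603, 3119 and 4254 in CflarFF livers. Every CflarLKO library was below every CflarFF library, and the log2 fold change was -1.07 (SE 0.22, edgeR adjusted p = 0.00484). *Arg1*, the arginase that completes the cycle, had 3421, 5174 and 5976 normalized counts in CflarLKO livers, against 8878, 9644 and 13512 in CflarFF livers. These groups were also apart (log2 fold change -1.14, SE 0.24, edgeR adjusted p = 0.00570). *Ass1*, which joins citrulline to aspartate, had 5593, 9287 and 11264 normalized counts in CflarLKO livers, against 5906, 11713 and 14740 in CflarFF livers. Here the groups overlapped, since CflarFF replicate 1 was nearly as low as the lowest CflarLKO library (log2 fold change -0.31, SE 0.36, edgeR adjusted p = 0.562), and the sign depended on the scaling, with 0.13 by library size only (no scaling factor) and 0.52 scaled to hepatocyte genes.

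**Figure D1:**
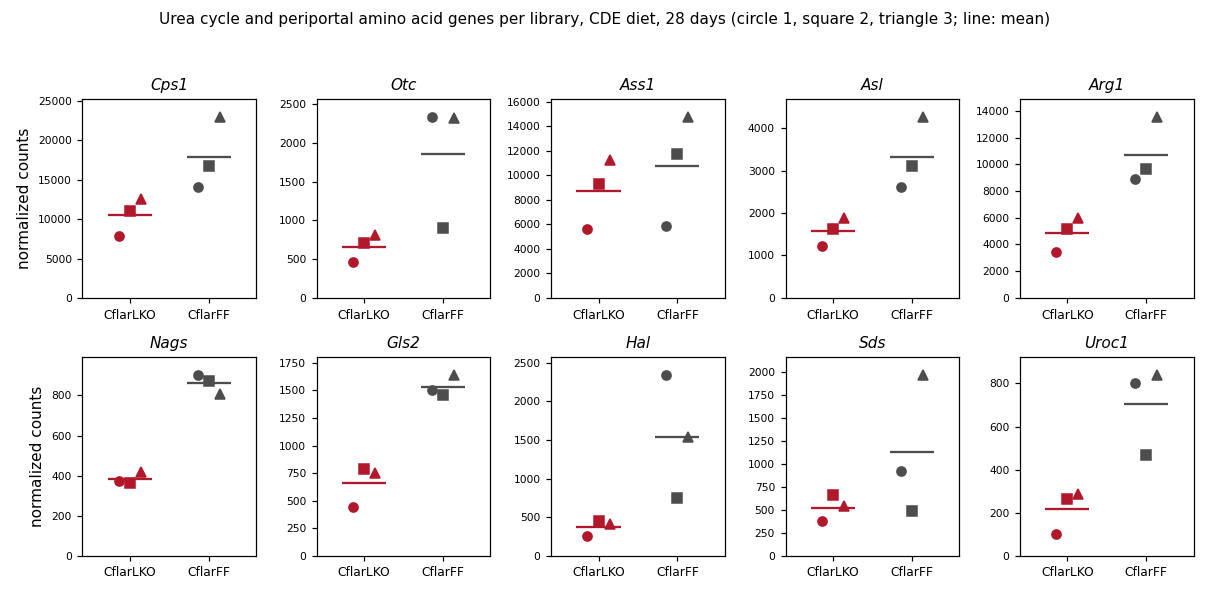
Normalized counts of each of the 10 genes in the livers of CflarLKO mice (red) and CflarFF mice (grey) fed the CDE diet for 28 days, with 1 marker per library (circle 1, square 2, triangle 3), a line at the mean and each axis starting at 0. The groups are apart for 8 genes and overlap for *Ass1* and *Sds*, and under scaling to hepatocyte genes the differences of *Cps1* and *Ass1* turn positive (0.09 and 0.52 on the log2 scale).

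Among the genes that feed nitrogen into the cycle, *Hal*, *Uroc1* and *Gls2* were lower and *Sds* did not pass the test. *Hal*, whose product opens histidine breakdown, had 251, 447 and 413 normalized counts in CflarLKO livers, against 2334, 753 and 1541 in CflarFF livers. No CflarLKO library reached the lowest CflarFF library, and the log2 fold change of -2.06 (SE 0.45, edgeR adjusted p = 0.0167) was the largest of the 10. *Uroc1*, whose product takes the next step of the same route, had 101, 265 and 286 normalized counts in CflarLKO livers, against 801, 470 and 837 in CflarFF livers. The lowest CflarFF value was again that of replicate 2, and the groups did not overlap (log2 fold change -1.71, SE 0.43, edgeR adjusted p = 0.0305). *Gls2* had 442, 787 and 753 normalized counts in CflarLKO livers, against 1501, 1461 and 1637 in CflarFF livers. The CflarFF libraries were close together and all above the CflarLKO libraries (log2 fold change -1.22, SE 0.21, edgeR adjusted p = 0.00181). *Sds* had 377, 656 and 536 normalized counts in CflarLKO livers, against 921, 488 and 1962 in CflarFF livers. CflarFF replicate 2 lay among the CflarLKO libraries, and the difference did not pass the test (log2 fold change -1.10, SE 0.54, edgeR adjusted p = 0.188).

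The calls in CflarLKO livers rested on single libraries to different degrees. *Asl*, *Arg1*, *Nags* and *Gls2* stayed lower at an adjusted p under 0.05 whichever library was left out. Without CflarFF replicate 3 these were the 4 genes that passed, since *Cps1* (-0.55, adjusted p = 0.117), *Otc* (-1.29, 0.119), *Hal* (-2.06, 0.0757) and *Uroc1* (-1.56, 0.116) did not. Without CflarLKO replicate 2, 5 genes passed, with *Cps1* (adjusted p = 0.0879), *Otc* (0.0821) and *Uroc1* (0.0666) lost. *Cps1* (adjusted p = 0.126) and *Otc* (0.0693) were lost without CflarLKO replicate 1, and *Otc* (0.101) and *Uroc1* (0.100) without CflarFF replicate 1, each time with 6 genes lower. Without CflarFF replicate 2, the CflarFF library poor in albumin, 9 of the 10 genes were lower, as *Sds* then passed (log2 fold change -1.46, adjusted p = 0.0225). In the RefSeq annotation *Arg1*, *Nags*, *Gls2* and *Sds* each overlap 1 other gene, whose reads could not be separated because the library method does not mark strand.

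The members differed widely in how reproducible they were between libraries of a group. In CflarFF livers the coefficient of variation was 5.54% for *Nags* and 6.01% for *Gls2*, but 44.7% for *Otc*, 51.3% for *Hal* and 67.4% for *Sds*. In CflarLKO livers it was 7.72% for *Nags* and 46.7% for *Uroc1*. The libraries also kept much of their order from gene to gene. CflarLKO replicate 1 was the lowest of its group for 9 of the 10 genes, with *Nags* as the exception, and CflarLKO replicate 3 was the highest for 7. In CflarFF livers, replicate 3 was the highest for 7 genes, replicate 2 was the lowest for *Otc*, *Gls2*, *Hal*, *Sds* and *Uroc1*, and replicate 1 was the lowest for *Cps1*, *Ass1*, *Asl* and *Arg1*. Summed over the 10 genes, the normalized counts were 20092, 30407 and 34912 in CflarLKO livers, against 40234, 46178 and 64550 in CflarFF livers. Most of each sum came from *Cps1*, *Ass1* and *Arg1*, so it describes these more than the other members. Those sums did not overlap, and an exact two-sided permutation test gave p = 0.1, the smallest value that 3 against 3 libraries allow. As shares of all counts, with no scaling factor, the sums were 0.276%, 0.400% and 0.447% in CflarLKO livers, against 0.372%, 0.476% and 0.609% in CflarFF livers, and these shares overlapped (exact permutation p = 0.3).

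On the normal diet, the mitochondrial enzymes *Otc* and *Nags* were lower in *Fgf18* Tg livers and *Cps1* did not pass the test. *Otc* had 505, 541 and 511 normalized counts in *Fgf18* Tg livers, against 940, 909 and 979 in non-Tg livers. The spread within either group was small beside the gap, and the means were 519 ± 19.0 in *Fgf18* Tg and 942 ± 34.8 in non-Tg libraries (SD, n = 3 each; log2 fold change -0.86, SE 0.10, edgeR adjusted p = 1.74e-05). *Nags* had 64.3, 72.0 and 70.4 normalized counts in *Fgf18* Tg livers, against 126, 88.5 and 121 in non-Tg livers. The groups were apart, although the gene rested on only 46 to 117 counts a library (log2 fold change -0.71, SE 0.16, edgeR adjusted p = 0.00489). *Cps1* had 2379, 2019 and 2277 normalized counts in *Fgf18* Tg livers, against 2655, 2148 and 3072 in non-Tg livers. The groups overlapped and the difference did not pass the test (log2 fold change -0.24, SE 0.13, edgeR adjusted p = 0.207, and 0.17 by library size only).

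*Ass1* and *Asl* were lower in *Fgf18* Tg livers, and *Arg1* did not pass the test. *Ass1* had 1833, 1809 and 2143 normalized counts in *Fgf18* Tg livers, against 2660, 2403 and 3220 in non-Tg livers. All *Fgf18* Tg libraries were below all non-Tg libraries (log2 fold change -0.52, SE 0.12, edgeR adjusted p = 0.00641). *Asl* had 406, 408 and 564 normalized counts in *Fgf18* Tg livers, against 622, 700 and 924 in non-Tg livers. Its groups were apart as well (log2 fold change -0.71, SE 0.16, edgeR adjusted p = 0.00725). *Arg1* had 1670, 1828 and 2103 normalized counts in *Fgf18* Tg livers, against 2025, 2190 and 2918 in non-Tg livers. The highest *Fgf18* Tg library lay above the lowest non-Tg library, and the log2 fold change of -0.35 (SE 0.14) had an adjusted p of 0.0803 in edgeR's test. The gene passed without *Fgf18* Tg replicate 3 (-0.44, adjusted p = 0.0458) and without non-Tg replicate 1 (-0.48, adjusted p = 0.0267), and its sign turned by library size only (0.06).

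**Figure D2:**
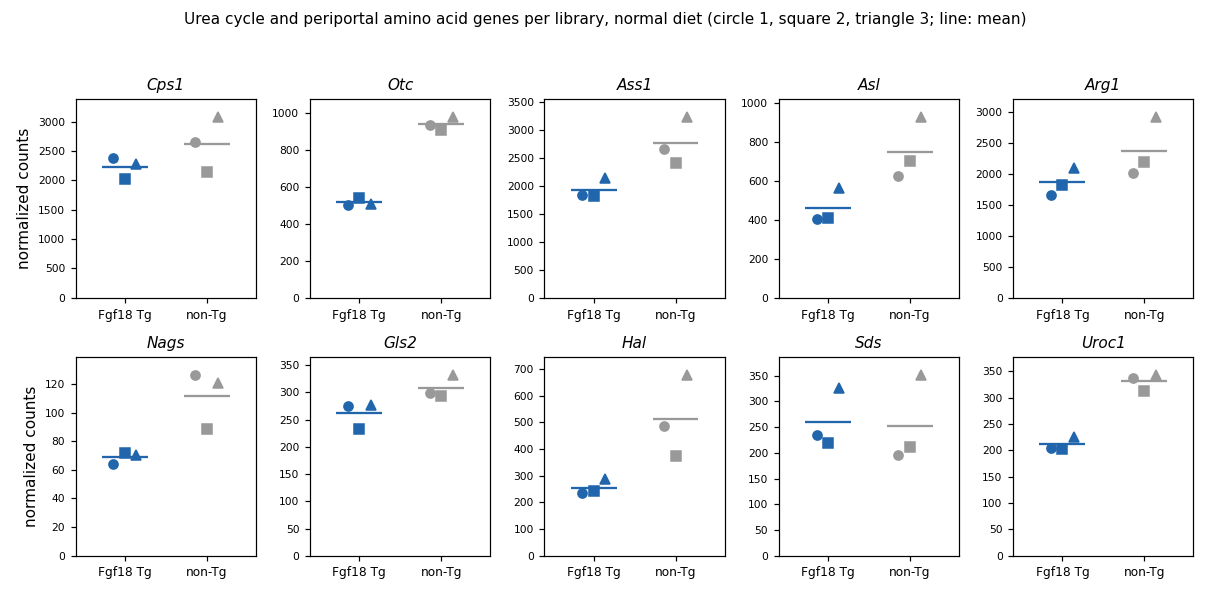
Normalized counts of each of the 10 genes in the livers of *Fgf18* Tg mice (blue) and non-Tg mice (light grey) fed a normal diet, with 1 marker per library (circle 1, square 2, triangle 3), a line at the mean and each axis starting at 0. The groups are apart for 7 genes and overlap for *Cps1*, *Arg1* and *Sds*, and by library size only the differences of *Cps1*, *Arg1* and *Gls2* turn positive (0.17, 0.06 and 0.17 on the log2 scale).

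Both early enzymes of histidine breakdown were lower in *Fgf18* Tg livers, whereas *Gls2* and *Sds* did not pass the test. *Hal* had 236, 243 and 288 normalized counts in *Fgf18* Tg livers, against 484, 375 and 676 in non-Tg livers. The groups were apart, and the log2 fold change of -1.01 (SE 0.19, edgeR adjusted p = 0.00251) was the largest of the 10 in this experiment too. *Uroc1* had 204, 203 and 226 normalized counts in *Fgf18* Tg livers, against 338, 313 and 342 in non-Tg livers. Its libraries were tight within each group and clearly apart between them (log2 fold change -0.65, SE 0.12, edgeR adjusted p = 0.000667). *Gls2* had 275, 232 and 277 normalized counts in *Fgf18* Tg livers, against 299, 293 and 331 in non-Tg livers. Although no library overlapped, the step was small (log2 fold change -0.24, SE 0.12, edgeR adjusted p = 0.176), and by library size only it was 0.17. *Sds* had 234, 219 and 326 normalized counts in *Fgf18* Tg livers, against 195, 211 and 350 in non-Tg livers. Here the libraries were intermixed, with a log2 fold change of 0.02 (SE 0.24, edgeR adjusted p = 0.957) that changed sign between settings.

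The 6 calls in *Fgf18* Tg livers held when any library was left out. Non-Tg replicate 3 was the highest of its group for 9 of the 10 genes and non-Tg replicate 2 the lowest for 7, while *Fgf18* Tg replicate 3 was the highest of its group for 7. Summed over the 10 genes, *Fgf18* Tg livers had 7807, 7574 and 8786 normalized counts, against 10344, 9632 and 12933 in non-Tg livers, again mostly from *Cps1*, *Ass1* and *Arg1*. The sums did not overlap (exact two-sided permutation p = 0.1, the smallest possible), whereas the shares of all counts did, at 0.420%, 0.425% and 0.505% in *Fgf18* Tg livers and 0.434%, 0.422% and 0.540% in non-Tg livers (exact permutation p = 0.6).

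Set side by side, *Otc*, *Asl*, *Nags*, *Hal* and *Uroc1* were past the threshold in both experiments, *Cps1*, *Arg1* and *Gls2* in CflarLKO livers, *Ass1* in *Fgf18* Tg livers and *Sds* in neither. A gene that passes in 1 experiment and not in the other is not thereby shown to differ, so the difference between the effects was tested in 1 fit of all 12 libraries over 13956 genes. None of the 10 genes passed that test at an adjusted p under 0.05, where 1.78% of the genes had a difference below 0 and 1.32% a difference above 0 that passed, and 2 of the 10 (*Arg1* and *Gls2*) had an unadjusted p under 0.05. *Gls2* came nearest, with an effect in CflarLKO livers minus that in *Fgf18* Tg livers of -0.89 on the log2 scale (SE 0.25, edgeR adjusted p = 0.0556), followed by *Arg1* at -0.70 (SE 0.30, edgeR adjusted p = 0.231). The difference for *Gls2* passed without CflarLKO replicate 2 (-1.13, adjusted p = 0.0238), without CflarLKO replicate 3 (-1.06, 0.0413) and without CflarFF replicate 2 (-0.92, 0.0279), and that for *Otc* passed without CflarFF replicate 2 (-0.87, 0.0203). Diet, age, sex (by the *Xist* and *Ddx3y* counts), count table and depth differ between the experiments along with the genotypes and cannot be told apart from them. The CDE diet mice were the older ones, as their 28 days of diet began at 8 weeks of age.

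**Figure D3:**
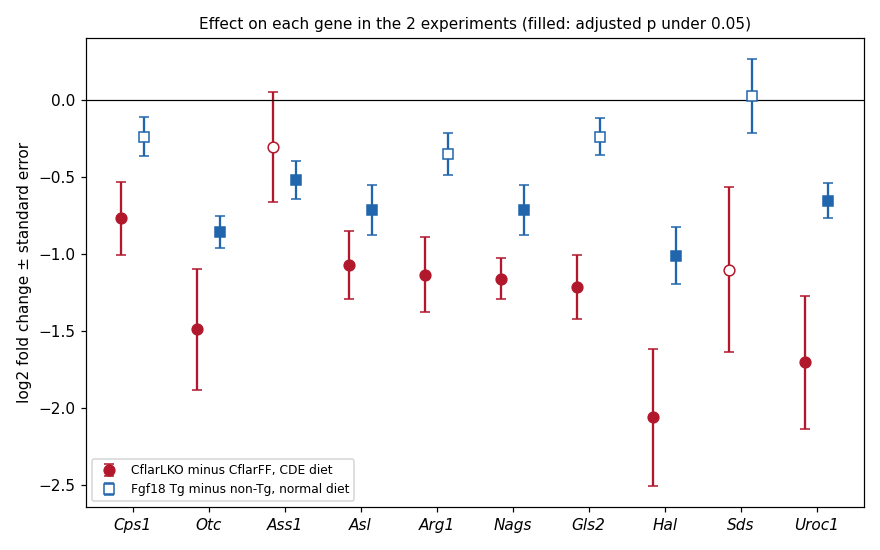
Log2 fold change of each of the 10 genes with its standard error, for CflarLKO minus CflarFF livers on the CDE diet (red circles) and *Fgf18* Tg minus non-Tg livers on the normal diet (blue squares), 3 libraries per group and filled markers at an adjusted p under 0.05. All 10 values are below 0 in CflarLKO livers and 9 are below 0 in *Fgf18* Tg livers, with *Sds* at 0.02, and the signs of *Cps1*, *Ass1*, *Arg1*, *Gls2* and *Sds* depend on the scaling or setting in at least 1 experiment.

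How many of the 10 genes were lower depended on the scaling of the libraries. TMM factors were 1.14 to 1.22 in CflarLKO and 0.818 to 0.912 in CflarFF libraries, and 1.11 to 1.19 in *Fgf18* Tg and 0.854 to 0.896 in non-Tg libraries. When total counts alone set the scale (library size only), the median over all genes moved to 0.46 on the log2 scale in CflarLKO livers, with 6649 genes higher and 647 lower in place of 2652 and 2240, and the median of the 10 genes moved to -0.70. The median of all genes moved to 0.42 in *Fgf18* Tg livers, with 3632 higher and 344 lower in place of 1169 and 1275, and that of the 10 genes to -0.18. With each library scaled to the geometric mean of 30 hepatocyte genes, the median of all genes was 0.88 in CflarLKO livers (11665 higher, 216 lower) and 0.22 in *Fgf18* Tg livers (1995 higher, 611 lower). On this last scale a value gives the level of a gene relative to other hepatocyte RNAs.

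Relative to hepatocyte genes, *Hal* (-1.13, edgeR adjusted p = 0.00391) and *Uroc1* (-0.81, adjusted p = 0.0294) remained lower in CflarLKO livers. *Nags* was at -0.29 (adjusted p = 0.204), *Gls2* at -0.36 (0.163), *Arg1* at -0.28 (0.308), *Asl* at -0.22 (0.418) and *Otc* at -0.57 (0.0666). Libraries of the groups did not overlap on this scale for *Nags*, *Hal* and *Uroc1*. *Otc* (-0.66, adjusted p = 0.000207), *Asl* (-0.50, 0.0296), *Nags* (-0.51, 0.0313), *Hal* (-0.80, 0.00384) and *Uroc1* (-0.45, 0.0104) were lower relative to hepatocyte genes in *Fgf18* Tg livers, while *Ass1* (-0.31, 0.0650) was not. By library size only, *Otc* (-0.45, 0.00399) and *Hal* (-0.60, 0.0188) were lower in *Fgf18* Tg livers. *Hal* was thus lower in both experiments under each of the 3 scalings.

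**Figure D4:**
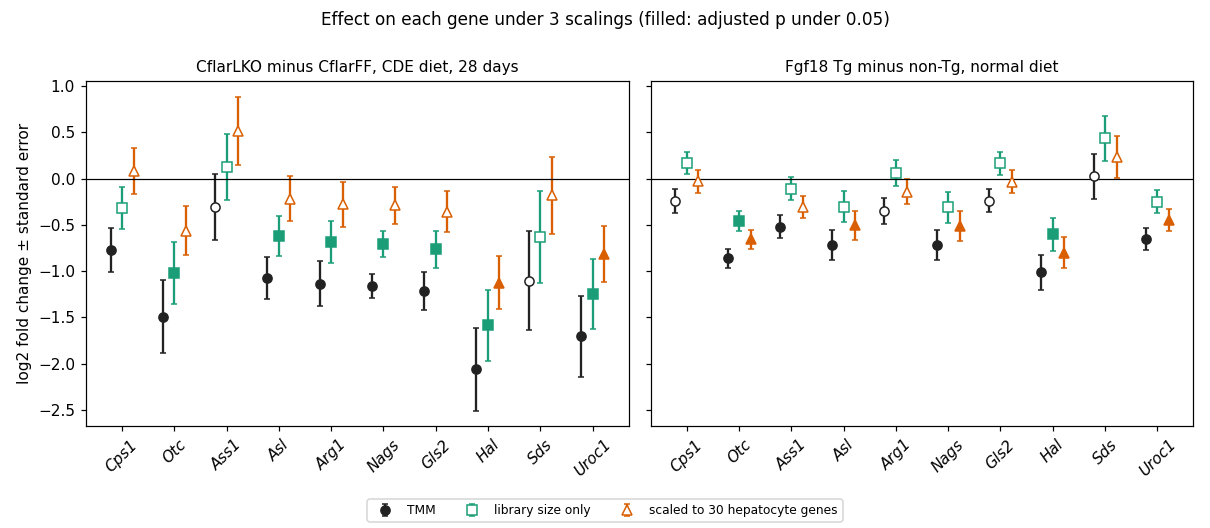
Log2 fold change of each of the 10 genes with its standard error under 3 scalings (TMM, black circles; library size only, green squares; 30 hepatocyte genes, orange triangles), for CflarLKO minus CflarFF livers (left) and *Fgf18* Tg minus non-Tg livers (right), filled at an adjusted p under 0.05. In CflarLKO livers all 10 values shift upward by similar steps and *Hal* and *Uroc1* stay filled throughout, whereas in *Fgf18* Tg livers *Otc* and *Hal* do.

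Enzymes related to the members were also measured. *Arg2*, the mitochondrial arginase that is sparse in hepatocytes, had 104, 190 and 81.8 normalized counts in CflarLKO livers (148, 219 and 68 counts), against 3.33, 5.90 and 9.52 in CflarFF livers (3, 5 and 8 counts). Every CflarLKO library was far above every CflarFF library (log2 fold change 4.32, SE 0.45, edgeR adjusted p = 0.000201), and the value stayed between 3.88 and 4.75 with each library left out. For every 100 counts of *Arg1* there were 3.03, 3.68 and 1.37 counts of *Arg2* in CflarLKO livers, against 0.0375, 0.0612 and 0.0704 in CflarFF livers, a ratio that needs no scaling between libraries. In the normal diet libraries *Arg2* had 0 or 1 count and was not tested.

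*Glul*, the glutamine synthetase of pericentral hepatocytes, had 11800, 10376 and 8882 normalized counts in CflarLKO livers, against 13620, 11671 and 11286 in CflarFF livers. Its groups overlapped (log2 fold change -0.24, SE 0.18, edgeR adjusted p = 0.367, and 0.66 scaled to hepatocyte genes). *Glul* had 517, 756 and 330 normalized counts in *Fgf18* Tg livers, against 1369, 1438 and 1340 in non-Tg livers. Each *Fgf18* Tg library lay far below the non-Tg libraries (log2 fold change -1.36, SE 0.27, edgeR adjusted p = 0.0148), yet the adjusted p was 0.0534 to 0.0642 without *Fgf18* Tg replicate 1 or without any 1 of the 3 non-Tg libraries. *Sdsl*, a relative of *Sds*, had log2 fold changes of -0.58 (adjusted p = 0.0605) in CflarLKO livers, where it passed without CflarFF replicate 2 (-0.77, 0.00739), and 0.07 (adjusted p = 0.857) in *Fgf18* Tg livers. *Cad*, which makes carbamoyl phosphate for pyrimidines, was at 0.19 (adjusted p = 0.520) in CflarLKO livers.

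**Figure D5:**
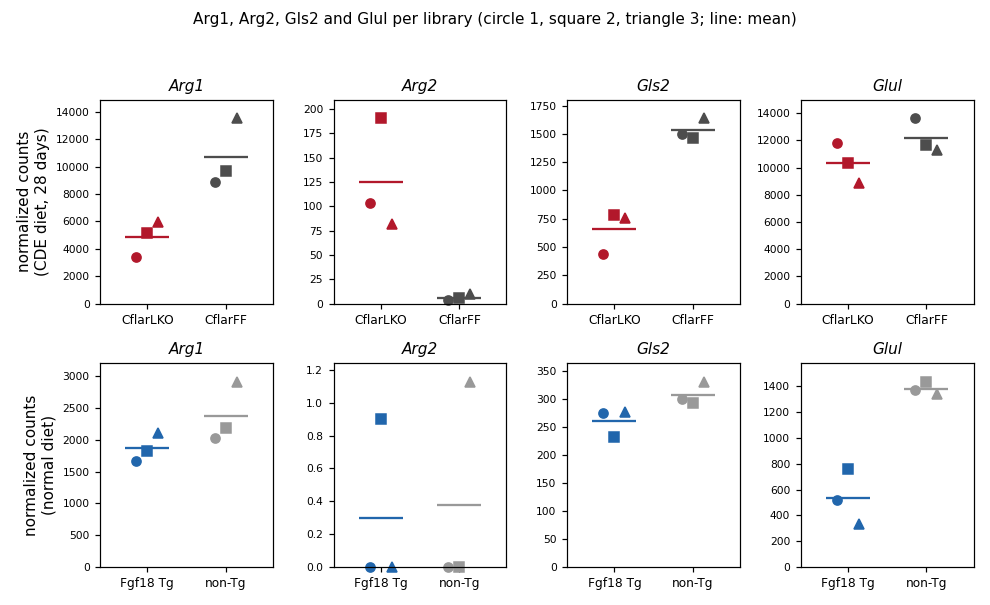
Normalized counts of *Arg1*, *Arg2*, *Gls2* and *Glul* per library in CflarLKO and CflarFF livers (upper panels) and in *Fgf18* Tg and non-Tg livers (lower panels), with 1 marker per library (circle 1, square 2, triangle 3), a line at the mean and each axis starting at 0. *Arg2* sits higher in CflarLKO livers while *Arg1* and *Gls2* sit lower, and *Arg2* rests on 0 or 1 count in the normal diet libraries.

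The histidine route was followed through its remaining enzymes. *Amdhd1* acts after *Uroc1*, and its log2 fold change in CflarLKO livers was -1.17 (SE 0.49, adjusted p = 0.137 in edgeR and 0.00643 in DESeq2), with CflarFF replicate 2 at 278 normalized counts beside 562 and 950 in the other CflarFF libraries. Without that library it passed (-1.51, adjusted p = 0.0102). *Amdhd1* was at 0.02 (adjusted p = 0.947) in *Fgf18* Tg livers. *Ftcd*, which hands the one-carbon unit of histidine to folate, had 290, 349 and 367 normalized counts in CflarLKO livers, against 1068, 537 and 1202 in CflarFF livers. The groups were apart (log2 fold change -1.48, SE 0.27, edgeR adjusted p = 0.00448), and the value relative to hepatocyte genes was -0.56 (adjusted p = 0.0335). Its value was -0.20 (adjusted p = 0.211) in *Fgf18* Tg livers, and the difference between its effects was -1.20 (adjusted p = 0.0379), a call lost without any 1 library other than CflarLKO replicate 3 and CflarFF replicate 2 (0.0504 to 0.102). Thus *Hal* and *Uroc1* were lower in both experiments, and *Ftcd* in CflarLKO livers.

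Genes that supply the urea cycle with its substrates were mostly lower in *Fgf18* Tg livers, with 10 of 13 lower, none higher and a median log2 fold change of -0.61, where 11.7% of all tested genes were lower and 10.7% higher. Those with the largest changes were *Prodh*, which oxidizes proline (-1.17, edgeR adjusted p = 4.92e-05), the cytosolic malate dehydrogenase *Mdh1* (-0.95, 9.21e-06), the mitochondrial glutamate carrier *Slc25a22* (-0.85, 0.000960) and the ornithine carrier *Slc25a15* (-0.74, 0.00120). In CflarLKO livers, where 13.1% of all tested genes were lower and 15.6% higher, 4 of 13 were lower, none was higher and the median was -0.19. They were *Aldh4a1*, which completes proline oxidation (-0.81, adjusted p = 0.00377), the aspartate-glutamate carrier *Slc25a13* (-0.76, 0.00819), the mitochondrial aspartate aminotransferase *Got2* (-0.58, 0.0174) and the alanine aminotransferase *Gpt* (-0.53, 0.0294). The last 2 rested on single libraries, as *Got2* was lost without CflarLKO replicate 1 (adjusted p = 0.0802) or 2 (0.0811) and *Gpt* without any 1 CflarLKO library or CflarFF replicate 3 (0.0725 to 0.104). Relative to hepatocyte genes the median of the list was 0.67 in CflarLKO livers, beside 0.88 over all tested genes. There 8 of 13 were higher, beside 68.5% of all tested genes. In *Fgf18* Tg livers the median was -0.40, beside 0.22 over all tested genes. Of the 13 genes 8 were lower and 1 higher there, beside 5.60% and 18.3% of all tested genes.

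Enzymes of serine, glycine and threonine metabolism were lower in both experiments, with 10 of 14 lower and none higher in CflarLKO livers (median -0.67) and 8 of 14 lower and 1 higher in *Fgf18* Tg livers (median -0.57). Of all tested genes, 13.1% were lower and 15.6% higher in CflarLKO livers, and 11.7% were lower and 10.7% higher in *Fgf18* Tg livers. *Dmgdh*, which demethylates dimethylglycine, a product of choline, was at -1.10 in CflarLKO livers (adjusted p = 0.00110) and -1.19 in *Fgf18* Tg livers (7.76e-06). *Sardh*, which acts on the next product, was at -0.99 in CflarLKO livers (adjusted p = 0.00281) and -0.97 in *Fgf18* Tg livers (1.09e-05). *Shmt1*, a serine hydroxymethyltransferase, was lower in CflarLKO livers (-1.04, adjusted p = 0.000608), as was *Gcsh* of the glycine cleavage system (-0.90, 0.00206), and *Gldc* of that system was lower in *Fgf18* Tg livers (-1.11, 9.23e-05). The 1 higher gene in *Fgf18* Tg livers was *Agxt*, which transfers the amino group of alanine to glyoxylate (0.38, adjusted p = 0.0212), and it was lost without *Fgf18* Tg replicate 2 (0.0855), non-Tg replicate 2 (0.0572) or non-Tg replicate 3 (0.127). Relative to hepatocyte genes the median of the list was 0.21 in CflarLKO livers, beside 0.88 over all tested genes. None was lower and 3 were higher there, beside 1.27% and 68.5% of all tested genes. In *Fgf18* Tg livers the median was -0.37, beside 0.22, with 7 lower, beside 5.60% of all tested genes.

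Of 9 ornithine and proline genes, 3 were higher and 1, *Aldh4a1*, was lower in CflarLKO livers, beside 15.6% and 13.1% of all tested genes. Beside *Arg2*, the higher genes were *Aldh18a1*, which makes the precursor of proline and ornithine from glutamate, and *Gatm*, which uses arginine and glycine for creatine. *Aldh18a1* had 83.3, 73.9 and 108 normalized counts in CflarLKO livers, against 11.1, 36.6 and 11.9 in CflarFF livers. All CflarLKO libraries were above all CflarFF libraries (log2 fold change 2.15, SE 0.40, edgeR adjusted p = 0.00302). *Gatm* was at 1.19 (SE 0.20, adjusted p = 0.00160) in CflarLKO livers and at 1.06 (SE 0.34, adjusted p = 0.0339) in *Fgf18* Tg livers, where it was lost without either of replicates 2 and 3 of either group (adjusted p = 0.0503 to 0.164). In *Fgf18* Tg livers 3 of 6 (*Oat*, *Prodh* and *Aldh4a1*) were lower and *Gatm* was the 1 higher gene, beside 11.7% and 10.7% of all tested genes. Among transporters of amino acids and ammonia, 3 of 14 were higher (*Rhbg*, *Slc1a4* and the arginine transporter *Slc7a1* at 1.03, adjusted p = 0.0124) and 4 lower (*Slc38a3*, *Slc6a12*, *Slc6a13* and *Aqp9*) in CflarLKO livers, again beside 15.6% and 13.1% of all tested genes. In *Fgf18* Tg livers 6 of 13 were lower, beside 11.7% of all tested genes, and none was higher, beside 10.7%. Among the lower genes was the glutamine transporter *Slc38a3* (-0.48, adjusted p = 0.00329).

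Of 4 genes of pericentral nitrogen handling, *Rhbg*, *Slc1a2* and *Glul* had effects that differed between the experiments. *Rhbg*, an ammonia transporter of pericentral hepatocytes, had 613, 480 and 429 normalized counts in CflarLKO livers, against 91.0, 209 and 113 in CflarFF livers. It was higher in every CflarLKO library (log2 fold change 1.89, SE 0.29, edgeR adjusted p = 0.00220). *Rhbg* had 4.81, 9.00 and 6.12 normalized counts in *Fgf18* Tg livers, against 37.7, 30.4 and 19.2 in non-Tg livers. There it was lower in every *Fgf18* Tg library (log2 fold change -2.15, SE 0.36, edgeR adjusted p = 0.000431), and the effects differed by 4.14 (adjusted p = 0.00129). *Slc1a2*, a pericentral glutamate transporter, was at -2.35 (SE 0.17, adjusted p = 9.73e-08) in *Fgf18* Tg livers and at -0.41 (SE 0.18, adjusted p = 0.110) in CflarLKO livers, a difference of 2.04 (adjusted p = 0.000405). *Glul* differed by 1.21 (adjusted p = 0.0359), a call lost without any 1 library other than CflarLKO replicate 3, CflarFF replicates 1 and 2 and *Fgf18* Tg replicate 2 (adjusted p = 0.0612 to 0.107). The difference of 0.26 for *Oat* did not pass (adjusted p = 0.778). All 4 genes of this list, with *Oat* (-0.61, adjusted p = 0.0331) as the fourth, were lower in *Fgf18* Tg livers, beside 11.7% of all tested genes, although *Oat* was lost without any 1 library other than *Fgf18* Tg replicate 2 (adjusted p = 0.0545 to 0.105).

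Some other zonation markers were lower on both sides of the lobule. The shares over all tested genes were 13.1% lower and 15.6% higher in CflarLKO livers, and 11.7% lower and 10.7% higher in *Fgf18* Tg livers. Of 15 periportal markers outside the 10 genes, 4 (*Cyp2f2*, *Etnppl*, *Igfals* and *Pigr*) were lower and 2 higher in CflarLKO livers (median -0.57), and 7 were lower and 2 higher in *Fgf18* Tg livers (median -0.51). *Cyp2f2*, a periportal cytochrome P450, was at -3.48 (SE 0.57, adjusted p = 0.00660) in CflarLKO livers and -2.02 (SE 0.14, adjusted p = 9.73e-08) in *Fgf18* Tg livers. *Etnppl*, a periportal phospholyase, was at -1.43 (adjusted p = 0.00232) in CflarLKO livers and -2.44 (0.000194) in *Fgf18* Tg livers. The higher genes were *Cdh1*, encoding E-cadherin, in both experiments (0.96, adjusted p = 0.00177 in CflarLKO livers; 0.94, 0.000773 in *Fgf18* Tg livers), with *Apoa4* in CflarLKO livers (0.90, 0.0155; 0.0704 without CflarLKO replicate 3) and *Ctsc* in *Fgf18* Tg livers (0.46, 0.0340; 0.0606 to 0.104 without any 1 library). Of 18 pericentral markers 7 were lower and 1 higher in CflarLKO livers (median -0.59), and of 15 tested in *Fgf18* Tg livers 8 were lower and none higher (median -0.43). *Cyp2e1* was at -1.43 (adjusted p = 0.00147) in CflarLKO livers and -0.24 (0.167) in *Fgf18* Tg livers, where *Cyp2c29* was at -2.27 (2.53e-05). Relative to hepatocyte genes, the medians in CflarLKO livers turned to 0.26 for the periportal and 0.25 for the pericentral markers, beside 0.88 over all tested genes. In *Fgf18* Tg livers they were -0.30 and -0.22, beside 0.22 over all tested genes.

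General hepatocyte genes and regulators were mostly lower in CflarLKO livers, whereas most of them did not pass the test in *Fgf18* Tg livers. Among all tested genes, 13.1% were lower and 15.6% higher in CflarLKO livers, and 11.7% were lower and 10.7% higher in *Fgf18* Tg livers. Of 30 hepatocyte genes 23 were lower and none higher in CflarLKO livers (median -1.02), beside the median of -1.15 of the 10 genes. In *Fgf18* Tg livers 9 were lower and 2 higher (median -0.18), beside -0.59 for the 10 genes, with *Tdo2*, which degrades tryptophan, at -1.01 (adjusted p = 9.50e-06) and *Apoa1* (0.61, 0.000761) and *Itih2* (0.45, 0.00748; 0.0510 without non-Tg replicate 3) as the higher genes. Of 15 receptors and transcription factors that govern hepatic amino acid metabolism, 10 were lower and none higher in CflarLKO livers (median -0.70), with *Ppara*, a lipid-sensing nuclear receptor, at -1.35 (adjusted p = 0.00625) and *Cebpa*, a factor needed for urea cycle gene expression in mouse liver, at -1.21 (0.00593). In *Fgf18* Tg livers 4 (*Cebpa*, *Hnf4a*, *Creb3l3* and *Ppara*) were lower (median of the 15 genes -0.14), with *Creb3l3* at -0.66 (adjusted p = 0.00188) and *Hnf4a* at -0.59 (0.00234), and 1 was higher, the coactivator *Ppargc1a* (1.05, 0.0354), which was lost without *Fgf18* Tg replicate 1 or 3 or non-Tg replicate 1 or 2 (adjusted p = 0.0890 to 0.141). Relative to hepatocyte genes the median of the regulators was 0.16 in CflarLKO livers, with none lower, beside 0.88 and 1.27% for all tested genes. In *Fgf18* Tg livers it was 0.06, with 2 lower, beside 0.22 and 5.60% for all tested genes.

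Markers of several other liver cells were higher, and those of endothelial cells mostly did not pass the test. As a background, a higher level was called for 15.6% of all tested genes in CflarLKO livers and for 10.7% in *Fgf18* Tg livers. A lower level was called for 13.1% and 11.7% of them. Stellate cell markers were higher for 13 of 15 in CflarLKO livers and for 11 of 13 in *Fgf18* Tg livers, with summed normalized counts of 9939 to 13065 in CflarLKO against 2945 to 4446 in CflarFF livers, and of 1488 to 1904 in *Fgf18* Tg against 373 to 469 in non-Tg livers. Cholangiocyte markers were higher for 8 of 11 in CflarLKO livers, with sums of 8594 to 12240 against 1525 to 4478 in CflarFF livers, the highest control being replicate 2. In *Fgf18* Tg livers 2 of 3 were higher, with sums of 462 to 685 against 116 to 175 in non-Tg livers. Macrophage markers were higher for 10 of 15 in CflarLKO livers (sums 6652 to 8084 against 3339 to 4748 in CflarFF livers) and for 4 of 10 in *Fgf18* Tg livers (519 to 604 against 304 to 420 in non-Tg livers). Neutrophil markers were higher for 8 of 9 in *Fgf18* Tg livers, with sums of 396 to 704 against 22.6 to 26.9 in non-Tg livers, and for 2 of 4 in CflarLKO livers, with 180 to 212 against 108 to 123 in CflarFF livers. Markers of alternatively activated macrophages were higher for 3 of 4 in CflarLKO livers (sums 664 to 678 against 426 to 475 in CflarFF livers) and for 0 of 2 in *Fgf18* Tg livers (70.3 to 81.1 against 55.5 to 74.3 in non-Tg livers). Lymphocyte markers were higher for 3 of 8 in CflarLKO livers (394 to 479 against 239 to 305 in CflarFF livers) and for the 1 that was tested in *Fgf18* Tg livers (68.8 to 77.4 against 17.2 to 32.8 in non-Tg livers). Of the endothelial markers, 2 of 12 were higher in CflarLKO livers, near the 15.6% of all tested genes, and the sums overlapped (1737 to 2454 against 1499 to 1965 in CflarFF livers). In *Fgf18* Tg livers 3 of 11 were higher and 2 (*Kdr* and *Clec4g*) lower, with sums of 377 to 411 against 221 to 297 in non-Tg livers. The gap between these sums lay largely in *Plvap*, with 192, 168 and 99.4 normalized counts in *Fgf18* Tg livers, against 33.4, 30.4 and 40.7 in non-Tg livers. Neither count table holds a gene that is at 0 in every library, so an undetected marker is absent from it. The normal diet table held 10 of 12 cholangiocyte markers and 5 of 6 markers of alternatively activated macrophages. The part of other cell types in the levels of the 10 genes was not tested.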

How the data were processed

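Whole-liver polyadenylated RNA was reverse transcribed with template switching and sequenced. The authors deposited, for each experiment, a table of read counts per gene, and a second table of signal values that are those counts divided by 1 factor per library (TCC-GUI normalization). The submitters' processing notes name Bowtie2 and the builds GRCm39 and mm39, and the counting tool is not given in the sources used here. The authors' normalized signal served only to recover their factors, and 0 columns were left over.

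Groups came from the labels (3 libraries each), and total counts per library set the precision. Each experiment was fitted on its own counts with edgeR 4.0.16 in R 4.3.3 (filterByExpr with at least 10 counts, TMM, robust quasi-likelihood test, Benjamini-Hochberg adjustment over all tested genes, threshold 0.05), with SE as the log2 fold change over the square root of F. The difference between effects was fitted over 12 libraries. The fits were tested on simulated counts. Alternatives were scaling to 30 hepatocyte genes, to total counts alone (library size only), by the authors' factors or by RLE, DESeq2 1.42.0, other filters, a replicate block, a joint fit and leaving out each library, and those for the summed level were chosen after seeing the data. Named were the 10 members, 4 related enzymes (*Arg2*, *Sdsl*, *Cad* and *Glul*), *Amdhd1*, *Ftcd* and, from each other list, up to 4 genes per experiment with the largest change past the threshold and the gene with the most counts. *Rhbg*, *Slc1a2*, *Glul* and *Ftcd* for the difference between effects, the few higher genes *Cdh1*, *Apoa4*, *Ctsc*, *Agxt*, *Apoa1*, *Itih2*, *Gatm* and *Ppargc1a*, and *Sardh*, *Dmgdh* and *Cyp2e1* where both experiments are given, were named after their values were seen, as were members listed to account for a small count. Some genes that the rule would name are not reported here. The members and the gene lists were chosen with earlier results of these data known.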

Additional observations from a re-analysis of the deposited data

Results flagged for a closer look

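Effects on 4 genes around the members differed between CflarLKO livers on the CDE diet and *Fgf18* Tg livers on the normal diet in the edgeR fit of all 12 libraries. The effect in CflarLKO livers minus that in *Fgf18* Tg livers was 4.14 on the log2 scale for *Rhbg* (adjusted p = 0.00129) and 2.04 for *Slc1a2* (adjusted p = 0.000405), and both held with each library left out. The difference was 1.21 for *Glul* (adjusted p = 0.0359) and -1.20 for *Ftcd* (adjusted p = 0.0379), and neither held throughout when single libraries were left out, with differences of 0.96 to 1.55 for *Glul* and -1.47 to -0.98 for *Ftcd*. *Rhbg* was higher in 3 of 3 CflarLKO libraries and lower in 3 of 3 *Fgf18* Tg libraries than all of their controls. Its *Fgf18* Tg values rested on few counts, at 4.81, 9.00 and 6.12 normalized counts, so the size of its difference is imprecise. Diet, age, sex (by the *Xist* and *Ddx3y* counts), depth and count table differ between the experiments and cannot be told apart from the genotypes.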

How the results depend on the processing

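The count of genes lower in CflarLKO livers, 8 of 10, was 7 or 8 with DESeq2, the authors' or RLE factors, library size only, both other filters and the joint fit, 2 scaled to hepatocyte genes, and 4 to 9 with 1 library left out. In *Fgf18* Tg livers the count of 6 was 2 by library size only and 2 in the joint fit (*Asl* and *Nags*), 5 to 7 otherwise, and 6 to 7 with 1 library left out. The difference test passed 1 gene by library size only (*Gls2*), 0 scaled to hepatocyte genes, and 0 to 2 genes with 1 library left out. No other cause for these shifts was tested. Over all genes, DESeq2 called 726 higher and 796 lower in *Fgf18* Tg livers, beside 1169 and 1275 in edgeR.

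Signs turned as follows. In CflarLKO livers scaled to hepatocyte genes, *Cps1* was 0.086, *Ass1* 0.52, *Sdsl* 0.33, *Glul* 0.66, *Aldh4a1* 0.055, *Slc25a13* 0.10, *Got2* 0.29 and *Gpt* 0.33, and the log2 ratio of the summed members was 0.035 in place of -0.82. By library size only, *Ass1* was 0.13 and *Glul* 0.23. In *Fgf18* Tg livers by library size only, *Cps1* was 0.17, *Arg1* 0.062, *Gls2* 0.17, *Ftcd* 0.21 and *Cyp2e1* 0.16, and *Ftcd* was 0.0093 scaled to hepatocyte genes. *Sds* was -0.026 with the authors' factors, -0.015 with no filter and -0.039 in the joint fit, and *Amdhd1* -0.034, -0.026 and -0.051. With 1 library left out, *Sds* was -0.16 to 0.32, *Sdsl* -0.037 to 0.22 and *Amdhd1* -0.12 to 0.12. The difference between effects, scaled to hepatocyte genes, was 0.12 for *Cps1*, 0.089 for *Otc*, 0.28 for *Asl* and 0.21 for *Nags*.

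The labels do not say whether the replicate numbers pair the samples. Deviations of same-numbered libraries correlated at -0.11 to 0.04 in the CDE diet and -0.04 to 0.08 in the normal diet experiment. No strong shared deviation was thus seen, but 3 libraries a group cannot exclude a pairing. With the replicate block, 5 of 10 genes were lower in CflarLKO livers (*Cps1*, *Asl*, *Arg1*, *Nags* and *Gls2*, with *Otc*, *Hal* and *Uroc1* lost) and 7 in *Fgf18* Tg livers, and the difference test passed 1 (*Gls2*). Few counts lay behind *Arg2* (0 or 1) and *Nags* (46 to 117) in the normal diet libraries. The same held for *Rhbg*, at 4.81, 9.00 and 6.12 normalized counts in *Fgf18* Tg livers.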
